A study of Mus musculus with 2 samples.

Results

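A set of 10 genes of the Notch pathway was chosen by symbol from the 26514 genes named once in both gene lists: the ligands Jag1, Jag2 and Dll1, the receptors Notch1, Notch2 and Notch3, and the targets Hes1, Hey1, Hey2 and Heyl. Their unique molecular identifiers (UMIs), each a count of 1 captured transcript end, were summed in each of 15 cell clusters that the authors labelled in the coronal suture, the joint between the frontal and parietal bones of the skull. Cells came from wildtype C57/BL6 mouse embryos (C57BL/6J in the study's methods) at E15.5 and E17.5, with no treatment or transgene, and each stage was deposited as 1 sample. For E15.5, 10 sutures were pooled, digested with a mix of dispase and collagenase II, and depleted of dead cells on a kit. For E17.5, sutures of 2 litters were digested with collagenase IV as 3 separate batches, each of which went through FACS and was made into a library of its own. The deposited E17.5 sample holds these 3 libraries together and is called the E17.5 library here, with the values of its parts given where they bear on a result.

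Because the libraries also differ in enzyme, cell sorting, embryos and counting software, these cannot be told apart from stage. No test was made, between stages because E15.5 has a single library, and between clusters because the authors defined them from these same cells and genes. The labels covered 5335 cells with a median of 8510 UMIs in the E15.5 library and 6830 with a median of 12301.5 UMIs in the E17.5 library, in clusters of 28 to 1185 and 76 to 1010 cells. They name 4 ectocranial clusters (EC1 to EC4) and a ligament cluster (LIG) above the bone, 6 osteogenic clusters (OG1 to OG4 and PO1 and PO2) and 4 meningeal clusters (MG1 to MG4). All 6 mesenchyme and osteoblast markers checked, Col1a1, Col1a2, Twist1, Prrx1, Runx2 and Sp7, had UMIs in each of the 15 clusters of both libraries. E17.5 barcodes carry the suffix 1, 2 or 3, and 5, 19 and 18 labelled cells with these suffixes shared a barcode sequence with a labelled E15.5 cell. Which suffix is which batch is not given in the sources used here.

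Notch receptors sit in the cell membrane and are activated by Jagged or Delta-like ligands on a neighbouring cell. Cleavage then frees the intracellular part of the receptor, which enters the nucleus, joins the DNA-binding protein RBPJ and switches on genes of the Hes and Hey families, themselves transcriptional repressors. In the skull, Jag1 is known for a part in the boundary between osteogenic and non-osteogenic cells of the coronal suture, and in vessel walls Notch3 and Heyl are typical of mural cells.

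All 10 genes were present once in each list under the same identifier. By the GENCODE annotation of GRCm38, which is mm10, they lie at chr2:137081456-137116644 (Jag1, minus strand), chr12:112907819-112929776 (Jag2, minus), chr17:15367354-15376872 (Dll1, minus), chr2:26457903-26516663 (Notch1, minus), chr3:98013527-98150361 (Notch2, plus), chr17:32120820-32166852 (Notch3, minus), chr16:30064384-30067796 (Hes1, plus), chr3:8663359-8667256 (Hey1, minus), chr10:30832359-30842801 (Hey2, minus) and chr4:123233556-123249875 (Heyl, plus). None overlapped another listed gene on its own strand, whereas Dll1 and Notch3 each overlapped 1 on the opposite strand, A930024N18Rik and Gm17276. The 250 bases before the transcription start are shown for Notch2, which was highest in 1 ectocranial cluster, and for Notch3 and Hey2, which were highest in pericytes-like cells outside the labels, with the letters bound by RBPJ in capitals where they occur. These are RefSeq sequences of GRCm38.p6, printed 5′ to 3′ on the strand of the gene, at chr3:98013288-98013537 (Notch2, plus strand), chr17:32166891-32167140 (Notch3, minus) and chr10:30842784-30843033 (Hey2, minus).
Notch2: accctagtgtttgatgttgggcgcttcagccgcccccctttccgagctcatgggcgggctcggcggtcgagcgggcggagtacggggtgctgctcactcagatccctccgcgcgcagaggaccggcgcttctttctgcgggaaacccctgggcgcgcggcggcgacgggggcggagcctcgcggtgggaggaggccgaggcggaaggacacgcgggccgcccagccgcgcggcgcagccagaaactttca
Notch3: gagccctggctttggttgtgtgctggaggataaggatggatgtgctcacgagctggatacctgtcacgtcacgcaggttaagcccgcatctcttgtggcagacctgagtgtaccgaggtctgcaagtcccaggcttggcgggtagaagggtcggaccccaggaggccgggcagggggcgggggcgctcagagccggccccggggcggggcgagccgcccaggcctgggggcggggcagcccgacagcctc
Hey2: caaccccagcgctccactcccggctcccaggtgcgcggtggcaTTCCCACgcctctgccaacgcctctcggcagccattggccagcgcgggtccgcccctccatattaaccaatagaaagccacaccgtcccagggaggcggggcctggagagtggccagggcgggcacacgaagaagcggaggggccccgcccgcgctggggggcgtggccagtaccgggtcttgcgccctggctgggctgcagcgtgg
The letters searched were GTGGGAA on either strand. Of the 7 genes with an entry, only Hey2 held them, on the opposite strand and 207 bases before the start, and 5.42% of all 32851 promoters of this length did. Hes1, Hey1 and Heyl had no entry.

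Levels are given as UMIs of the gene per 1000000 UMIs of the same cells (CPM), with the exact Poisson interval at 95%. Because the assay reads transcript ends, the values are not scaled to gene length, and levels are compared between clusters and libraries, not between genes. All intervals here cover counting error only, not the spread between embryos or batches. A cluster was called for a gene when its level was at least 2-fold above that of all other labelled cells in both libraries, a description and not a test, since the authors built the clusters from these same cells and genes. Of 178020 gene-cluster pairs over 11868 genes with at least 50 UMIs in each library, 1.89% were called, and 20.7% of these genes had 1 or more called clusters. Of the 10 Notch genes 8 reached 50 UMIs, all but Jag2 and Dll1, and 4 of their 120 pairs (3.33%) were called, on 4 genes. They were Jag1 and Notch2 in EC1, Hey1 in OG3 and Notch3 in MG1, and the interval of the ratio lay above 1 in both libraries for all of them except Notch3.

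Jag1 and Notch2, a ligand and a receptor, were both highest in EC1, an ectocranial cluster. Jag1, the ligand mutated in Alagille syndrome, stood at 219 CPM (203 to 236, 673 UMIs) in EC1 of the E15.5 library and at 85.4 CPM (74.4 to 97.6, 216 UMIs) in that of E17.5. The other labelled cells held 44.1 and 17.1 CPM, so the ratio of EC1 to them was 4.96 (4.54 to 5.41) and 5.0 (4.32 to 5.77). The ratio was thus almost the same in both libraries although the level itself was 2.56-fold lower at E17.5. EC1 was followed in both libraries by EC2 (80.1 and 54.6 CPM). In the earlier library EC3 (56.4 CPM) and EC4 (57.2 CPM) came next, not apart beyond their intervals, whereas at E17.5 EC3 (43.7 CPM) was followed by the meningeal cluster MG4 (30.0 CPM) and EC4 (27.2 CPM), whose intervals overlapped. Summed by layer, Jag1 was 76.9 CPM in ectocranial, 12.2 CPM in osteogenic and 25.8 CPM in meningeal cells of the earlier library, and 36.0, 10.9 and 17.1 CPM in those of the later. The order of the layers was therefore the same in both libraries, and the lowest clusters were osteogenic, PO2 at E15.5 (6.20 CPM, 3 UMIs) and OG4 at E17.5 (3.14 CPM, 33 UMIs).

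**Figure D1:**
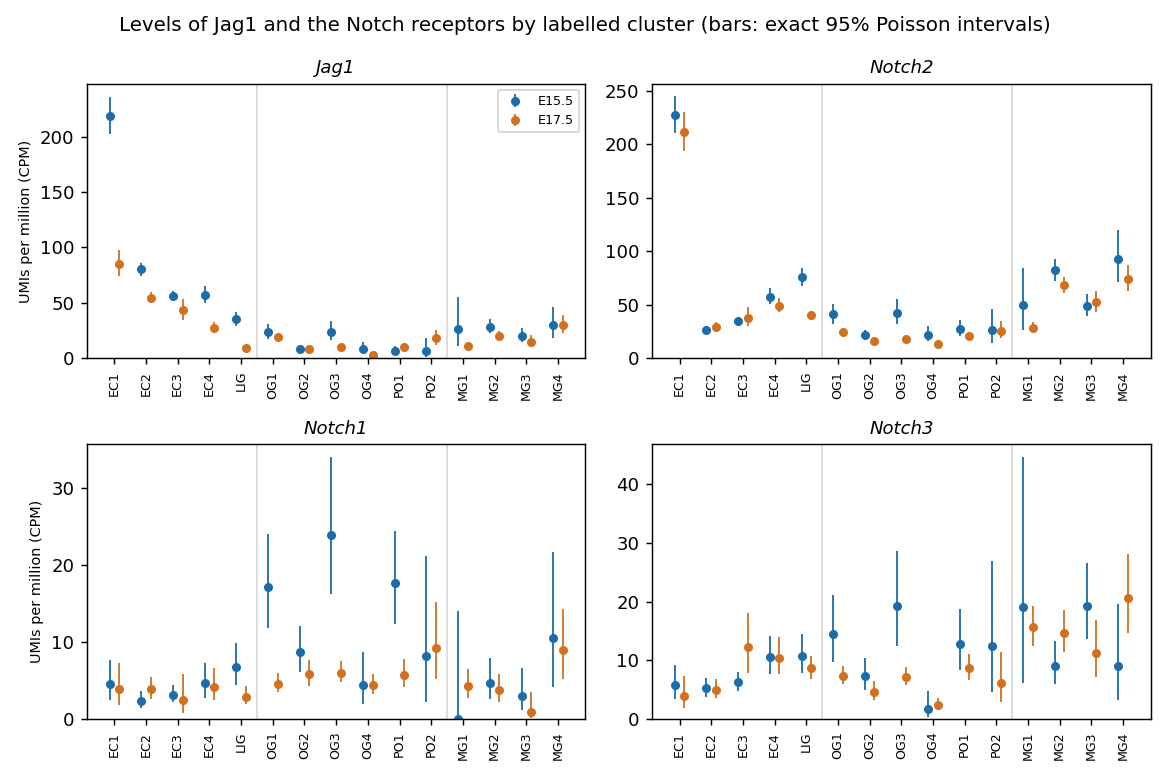
Levels of Jag1, Notch2, Notch1 and Notch3 in CPM (vertical axis, linear, different range in each panel) in the 15 labelled clusters (horizontal axis), with E15.5 in blue and E17.5 in orange and exact Poisson intervals at 95% as bars. Grey lines part ectocranial, osteogenic and meningeal clusters. EC1 stands above every other cluster for Jag1 (219 and 85.4 CPM) and Notch2 (228 and 211 CPM), and Notch1 is highest at E15.5 in OG3, PO1 and OG1.

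Notch2 in EC1 was 228 CPM (211 to 245, 700 UMIs) in the earlier library and 211 CPM (194 to 230, 534 UMIs) in the later. These intervals overlapped, so that of this ligand and receptor in EC1, Jag1 was lower at E17.5 beyond counting error and Notch2 was not. The other labelled cells held 41.9 and 29.1 CPM, which gave EC1 a ratio of 5.44 (4.98 to 5.93) and 7.26 (6.60 to 7.97). Outside EC1 the next highest level was in MG4, with 93.3 and 74.2 CPM, and the intervals of MG2 (82.2 and 68.2 CPM) overlapped it in both libraries. The lowest Notch2 level was 21.7 CPM in OG2 at E15.5 and 13.2 CPM in OG4 at E17.5. EC2, which followed EC1 for Jag1, held 26.9 and 29.7 CPM of Notch2, below the rest of the ectocranial clusters in both libraries, while MG4 and MG2, which followed EC1 for Notch2, held 30.1 and 28.3 CPM of Jag1 at E15.5. By layer, Notch2 was 59.8, 28.5 and 71.0 CPM in ectocranial, osteogenic and meningeal cells of the earlier library, and 54.9, 18.8 and 51.5 CPM in those of the later.

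In EC1 the batches could be compared through the barcode suffixes. Notch2 was 212, 222 and 205 CPM in suffixes 1, 2 and 3, with overlapping intervals. Jag1 was 105, 61.4 and 78.4 CPM, and the interval of suffix 1 (85.4 to 127) did not overlap that of the whole E15.5 library either. All 3 suffixes were below E15.5 for Jag1, and the called ratio of EC1 held in each suffix for both genes. In some other clusters Notch2 moved with the suffix: it was 81.2 CPM in EC4 and 79.6 CPM in LIG in suffix 1, against 37.0 and 36.8 CPM in suffix 2 and 36.9 and 40.3 CPM in suffix 3.

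**Figure D2:**
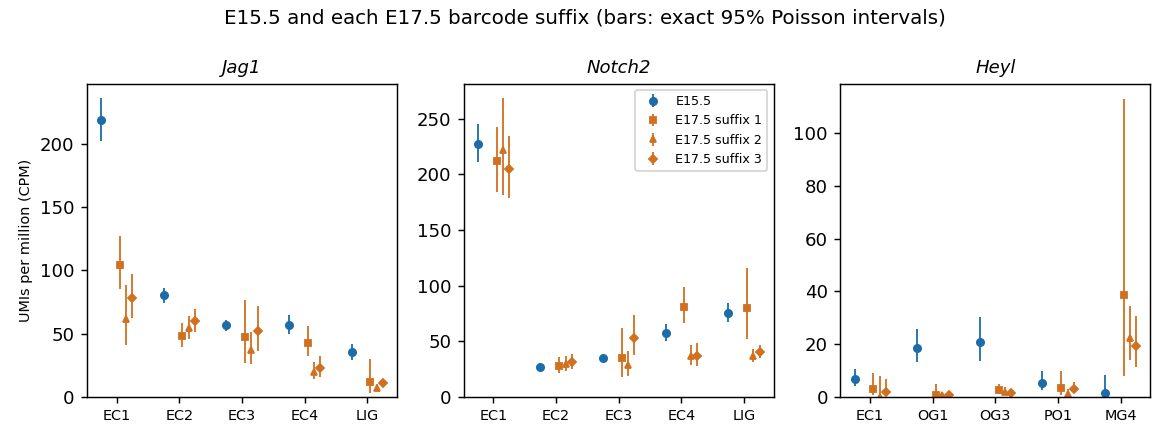
Levels of Jag1, Notch2 and Heyl in CPM (vertical axis, linear, different range in each panel) in 5 clusters each (horizontal axis), for the E15.5 library (blue) and each barcode suffix of the E17.5 library (orange), with exact Poisson intervals at 95% as bars. Notch2 in EC1 lies between 205 and 222 CPM in the 3 suffixes, and Jag1 in EC1 between 61.4 and 105 CPM, below the 219 CPM of E15.5, while Heyl in MG4 was 38.7, 22.5 and 19.1 CPM.

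Both genes were found in the same EC1 cells. At E15.5, 70.6% of the 330 EC1 cells had a Jag1 UMI and 73.0% a Notch2 UMI, and at E17.5 the shares were 37.3% and 72.5% of 295 cells. After every cell was thinned to 3000 UMIs the Jag1 shares in the earlier and later library were 42.6% and 20%, and the Notch2 shares 46.1% and 45.9%. A UMI of both was present in 57.6% of EC1 cells at E15.5 (52.0% to 63.0%, 190 cells) and in 29.2% at E17.5 (24.0% to 34.7%, 86 cells). Products of the single shares were 51.6% and 27.0%, below the interval at E15.5 and inside it at E17.5. The median depth of EC1 cells was 9143 and 6767 UMIs, and its part in these shares was not tested. For reference, unlabelled barcodes with over 3% haemoglobin UMIs had a Jag1 UMI in 4.93% and 1.90% and a Notch2 UMI in 5.55% and 8.06%, at median depths of 3785 and 8994 UMIs. That these barcodes, 6393 at E15.5 and 211 at E17.5, are cells lacking these genes was assumed and not checked. Their shares may therefore not be a clean background.

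The other ligands were close to the detection limit in labelled cells. Jag2, the other Jagged ligand, had 23 UMIs over all labelled cells of the E15.5 library and 8 over those of E17.5. OG4, an osteogenic cluster, held 10 of the 23, at 5.53 CPM, and 3 of the 8, at 0.286 CPM. Its ratio to the rest was 19.9 (7.81 to 49.1) and 4.69 (0.729 to 24.1), so that 5 of the 150 pairs over all 10 genes were called with this one, although Jag2 lay below the 50 UMIs required for the background. Dll1, a Delta-like ligand, had 35 and 4 UMIs, with the most in OG1 at E15.5 (8 UMIs, 4.16 CPM), of which 2 were in cells without a UMI of the skeletal muscle markers Myod1, Myf5, Myog and Des, and at most 2 UMIs in any cluster at E17.5. At E17.5 there was no Dll1 UMI in any meningeal cluster, which by a limit of 3 counts allows up to 0.545 CPM in MG1 and up to 1.58 CPM in MG4.

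Notch1 and Notch3, receptors with vascular roles, were low in labelled cells and had other leading clusters than Notch2. Notch1 at E15.5 was 24.0 CPM (16.3 to 34.0, 31 UMIs) in OG3, 17.6 CPM in PO1 and 17.2 CPM in OG1, with overlapping intervals, and 2.39 CPM in EC2. At E17.5 the same osteogenic clusters held 6.06, 5.78 and 4.60 CPM, and the highest level was 9.26 CPM (5.18 to 15.3, 15 UMIs) in PO2, whose interval overlapped that of MG4 (8.95 CPM). Osteogenic cells as a whole held 12.7 CPM (10.7 to 14.9) in the earlier and 5.41 CPM (4.79 to 6.08) in the later library, against 3.73 and 3.52 CPM in ectocranial cells. Summed by layer, the intervals of the libraries were thus apart in osteogenic cells and overlapped in ectocranial and meningeal cells. Within the ectocranial layer LIG was also lower at E17.5, with 6.77 and 2.93 CPM on 27 UMIs each, 2.31-fold, and its ratio interval of E17.5 over E15.5 was 0.245 to 0.767.

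Notch3 was spread more evenly. At E15.5 it was highest in MG3 (19.3 CPM, 38 UMIs), OG3 (19.3 CPM, 25 UMIs) and MG1 (19.1 CPM, 5 UMIs), and at E17.5 in MG4 (20.5 CPM, 14.6 to 28.1, 39 UMIs), MG1 (15.6 CPM) and MG2 (14.7 CPM). OG4 was lowest in both libraries, with 1.66 and 2.48 CPM. MG1 was called at 2.26-fold (0.731 to 5.32) and 2.09-fold (1.65 to 2.62), but the E15.5 value rests on 5 UMIs in 28 cells, and the call was lost with mitochondrial, ribosomal, Hbb and Hba UMIs left out of the total, with a mean over cells, and in suffix 2. Suffix 1 held no MG1 cell.

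Among the targets, Hes1, a basic helix-loop-helix repressor that other pathways also induce, was detected in every cluster. It was highest in EC2 at E15.5 (249 CPM, 239 to 259, 2293 UMIs) and in MG3 and MG4 at E17.5 (315 and 313 CPM, 642 and 594 UMIs), whose intervals overlapped. LIG was lowest in both libraries, with 92.0 and 52.0 CPM. EC2 held 202 CPM at E17.5, below MG3, MG4 and MG2, and MG3 and MG4 stood at 179 and 157 CPM at E15.5. In the suffixes Hes1 was 284, 312 and 334 CPM in MG3 and 297, 329 and 297 CPM in MG4, all above both clusters at E15.5. EC1, the cluster with the most Jag1 and Notch2, held 190 and 121 CPM of Hes1, so it ranked first for the ligand and the receptor and not for this target. No Hes1 pair was called at 2-fold in both libraries.

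Hey1, a Hes-related repressor, was highest in OG3 at E15.5, with 34.8 CPM (25.4 to 46.5, 45 UMIs), where the rest of the labelled cells held 4.14 CPM, an 8.40-fold ratio (5.93 to 11.7). At E17.5 OG3 held 17.8 CPM (229 UMIs), 2.70-fold (2.31 to 3.16) above the others, and in the suffixes 15.8, 19.4 and 17.3 CPM. MG4 was higher in that library, with 28.4 CPM (21.4 to 37.1, 54 UMIs), although it had 1 Hey1 UMI at E15.5. OG1, OG2, PO1 and PO2 held 10.8 to 14.5 CPM at E15.5, and PO1 held 14.6 CPM at E17.5. By layer, Hey1 was 1.86, 13.0 and 5.29 CPM in ectocranial, osteogenic and meningeal cells of the earlier library and 1.53, 11 and 9.73 CPM in those of the later, lowest in ectocranial cells in both.

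Hey2 and Heyl, 2 more Hes-related repressors, were low in labelled cells and had different leading clusters in the libraries. Heyl at E15.5 was 20.9 CPM (13.8 to 30.4, 27 UMIs) in OG3 and 18.7 CPM (13.1 to 25.9, 36 UMIs) in OG1, and at most 6.83 CPM elsewhere. At E17.5 OG3 held 1.94 CPM (25 UMIs) and OG1 0.753 CPM (9 UMIs), and MG4 held 21.6 CPM (41 UMIs), where E15.5 had 1 UMI. Hey2 at E15.5 was 7.64 CPM in MG1 on 2 UMIs, 5.39 CPM in PO1 (11 UMIs) and 4.88 CPM in OG2 (20 UMIs), and MG4 held 7.90 CPM of it at E17.5 (15 UMIs). In MG4 at E17.5, Hey1, Heyl, Hey2 and Notch3 were thus all at their highest among the labelled clusters. Of the 202 MG4 cells of that library, 7 carried suffix 1, and in suffixes 2 and 3 MG4 held 32.1 and 22.5 CPM of Hey1 and 25.7 and 12.4 CPM of Notch3.

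**Figure D3:**
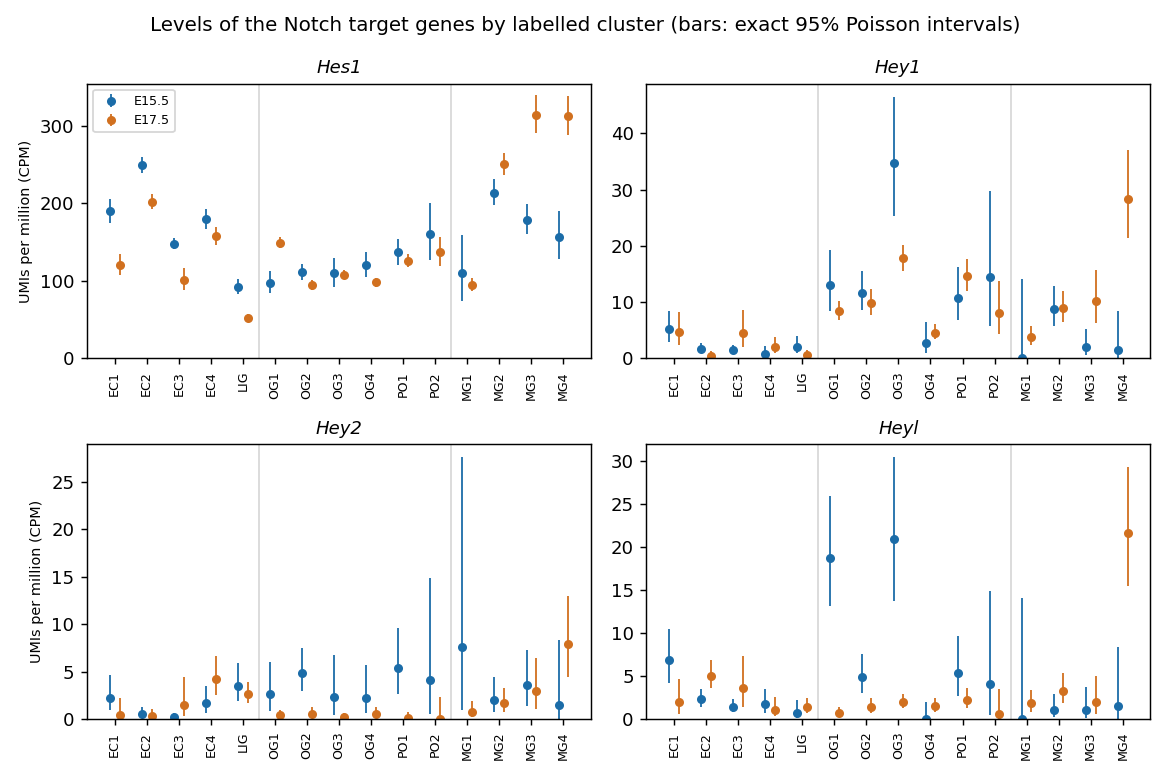
Levels of Hes1, Hey1, Hey2 and Heyl in CPM (vertical axis, linear, different range in each panel) in the 15 labelled clusters, with E15.5 in blue, E17.5 in orange and exact Poisson intervals at 95% as bars. Hey1 is highest in OG3 at E15.5 (34.8 CPM), Heyl in OG3 and OG1 at E15.5 (20.9 and 18.7 CPM), and Hey1, Hey2 and Heyl in MG4 at E17.5 (28.4, 7.90 and 21.6 CPM).

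Markers of vessel-associated cells were present in the clusters that led for Heyl. The summed level of 5 pericyte markers (Rgs5, Acta2, Myh11, Kcnj8 and Abcc9) ranged from 16 CPM in OG4 to 282 CPM in OG1 at E15.5, with 196 CPM in OG3 and Myh11 at 0 in both, and from 61.3 CPM in MG3 to 682 CPM in LIG at E17.5, with 211 CPM in OG1, 480 CPM in OG3 and 85.8 CPM in MG4 and none of the 5 at 0 in these 3. From E15.5 to E17.5 the pericyte marker sum in OG3 was higher and Heyl was lower. LIG, with the highest sum at E17.5, held 1.41 CPM of Heyl there. The sum includes Acta2, which the paper lists among smooth muscle markers enriched in LIG itself. The part of vessel-associated cells in these Heyl levels was not tested. The 6 endothelial markers (Pecam1, Ecscr, Flt1, Cdh5, Emcn and Kdr) summed to 113 CPM in MG4 at E15.5 and 77.4 CPM at E17.5, with Flt1 at 0 in both and Emcn in the first, in a range over clusters of 4.97 to 113 CPM and 3.70 to 88.7 CPM. Heyl was then counted in cells with no UMI of any of the 11 markers, a setting chosen after seeing the data. It was 11.9 CPM (12 UMIs, 162 cells) in OG1 and 8.18 CPM (5 UMIs, 73 cells) in OG3 at E15.5, and 12.9 CPM (8 UMIs, 72 cells) in MG4 at E17.5. All cells of these clusters held 18.7, 20.9 and 21.6 CPM, so the levels without marker UMIs were lower. The cells without marker UMIs are part of the same clusters, so overlap of the intervals is no measure of this difference. Hey1 in the same kind of cells was 34.4 CPM (21 UMIs) in OG3 at E15.5 and 29.1 CPM (18 UMIs) in MG4 at E17.5, close to its level in all cells of these clusters.

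Markers of skeletal muscle also differed between the libraries in the clusters that led for Heyl. Myod1, Myf5, Myog and Des summed to 364 CPM (699 UMIs) in OG1 and 66.1 CPM in PO1 at E15.5, with none of the 4 at 0, against 0.502 and 0.550 CPM at E17.5, where Myod1 and Myog were at 0 in both. OG3 held 3.09 and 0.543 CPM of them, with Myod1 at 0 in both libraries. In E15.5 cells with no UMI of the 4, a setting likewise chosen after seeing the data, Heyl was 18.3 CPM (31 UMIs, 238 of 261 cells) in OG1 and 18.2 CPM (23 UMIs) in OG3, and Notch1 was 17.8 CPM in OG1, 23.8 CPM in OG3 and 17.8 CPM in PO1. Heyl and Notch1 in these clusters were about as high without the cells that carried muscle markers, whereas Dll1 in OG1 went from 8 to 2 UMIs. A cell with no UMI of the 4 genes can still be a muscle cell at this depth. The part of such cells in these levels was not tested.

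**Figure D4:**
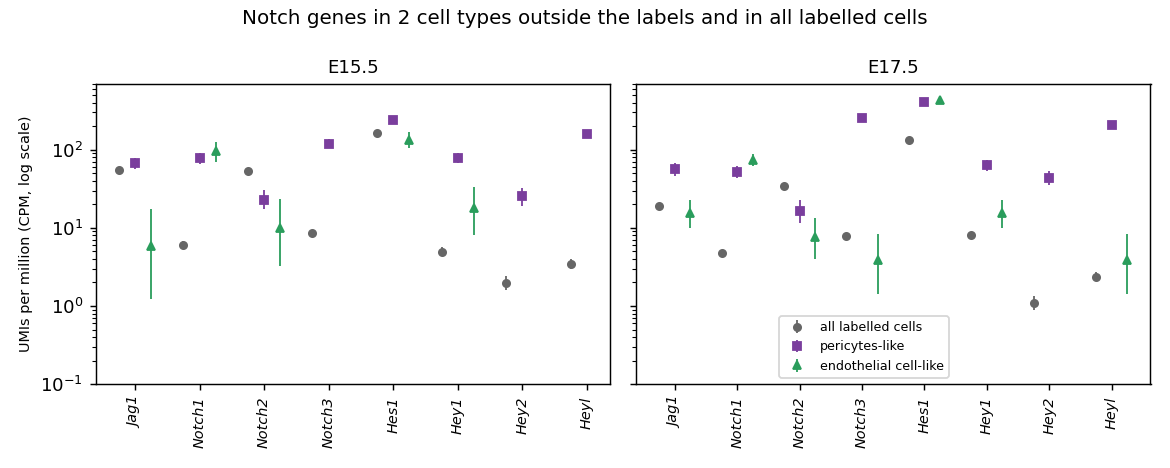
Levels of 8 Notch genes in CPM (vertical axis, log scale) in all labelled cells (grey circles), pericytes-like cells (purple squares) and endothelial cells-like cells (green triangles) of each library, with exact Poisson intervals at 95% as bars. Points at 0 are not drawn, which are Notch3, Hey2 and Heyl at E15.5 and Hey2 at E17.5 in the endothelial cells-like group, and Heyl stands at 160 and 205 CPM in pericytes-like cells against 3.48 and 2.37 CPM in labelled cells.

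Outside the authors' labels, cells were clustered without the Notch genes and named from marker genes. Pericytes-like cells numbered 191 in the earlier and 173 in the later library and carried 5 of the 8 Notch genes with enough UMIs at least 2-fold above all labelled cells in both libraries, against 4.84% of all genes. Heyl was 160 CPM (144 to 178) and 205 CPM (187 to 225) there, 46.1-fold and 86.9-fold above labelled cells, and Notch3 was 120 and 254 CPM, 14.1-fold and 32.0-fold above them. Hey2 was 25.2 and 43.1 CPM, Hey1 79.3 and 63.1 CPM, and Notch1 77.5 and 52.0 CPM. Jag1 at 67.3 and 56.0 CPM and Hes1 at 242 and 403 CPM were not called, and Notch2 was below the labelled cells, at 23.0 and 16.5 CPM. Heyl in the suffixes was 271, 211 and 177 CPM and Notch3 315, 219 and 267 CPM. The promoters of Notch3 and Hey2 printed above belong to genes of this group, and the RBPJ letters were found in that of Hey2 and not in that of Notch3.

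Endothelial cells-like cells, 44 and 119, differed from pericytes-like cells in receptor and ligand. Notch1 was 94.9 CPM (70.0 to 126, 48 UMIs) and 74.5 CPM (61.5 to 89.3, 116 UMIs), 15.9-fold above labelled cells in each library, and it was the 1 gene of the 8 that was called, against 7.45% of all genes. Dll1 and Jag2, which lay below 50 UMIs in labelled cells, were 5.93 CPM (3 UMIs) and 13.8 CPM (7 UMIs) in the earlier library, 8.24-fold (1.62 to 26.1) and 29.2-fold (10.6 to 70.4) above labelled cells. In the later one they were 21.2 CPM (33 UMIs) and 8.99 CPM (14 UMIs), against 4 and 8 UMIs in all labelled cells. At E17.5 most Dll1 UMIs, 21 of the 33, were in 24 cells led by Vwf (73.7 CPM), and 12 were in 95 cells led by Clec1a and Sox17 (9.43 CPM). Notch3, Hey2 and Heyl had no UMI in these cells at E15.5, which allows up to 5.93 CPM each by a limit of 3 counts. Hes1 was 134 CPM at E15.5, with a ratio to the labelled cells of 0.813 (0.630 to 1.03), and 427 CPM, above them, at E17.5. The 44 cells of E15.5 were led by Ccl21a, Mmrn1 and Flt4, so the endothelial cells-like groups of the libraries differed in their leading genes. The part of this in the values above was not tested.

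Over all labelled cells, 9 of the 10 genes had a lower level at E17.5 and 1, Hey1, a higher one. Jag1 was 55.2 CPM at E15.5 and 18.9 CPM at E17.5, 2.91-fold higher at E15.5 (2.74 to 3.1). In the suffixes the E17.5 level was 0.506, 0.281 and 0.338 of the E15.5 level, and with each cluster weighted equally it was 0.579, which put Jag1 within 2-fold in suffix 1 and under equal weights. Jag2 and Dll1 were 5.48-fold (2.36 to 14.2) and 16.7-fold (5.96 to 64.6) higher at E15.5, on 23 against 8 and 35 against 4 UMIs. These were the 3 genes at least 2-fold apart, and only Jag1 of them was among the genes of the background, of which 10.0% were at least 2-fold higher at E15.5 and 4.84% at E17.5. The median ratio of E17.5 to E15.5 was 1.002 over the 11868 genes with at least 50 UMIs in each library. Over the 10 Notch genes the median E17.5 level was 0.658 of that at E15.5. That set includes Jag2 (0.183) and Dll1 (0.06), which lay below 50 UMIs, so the medians come from unlike sets of genes.

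The remaining genes were less than 2-fold apart over all suffixes together. Notch2 was 53.6 and 34.1 CPM, and its E17.5 level was 0.908, 0.485 and 0.669 of that at E15.5 in the suffixes, past 2-fold in suffix 2. Notch1 was 5.99 and 4.70 CPM and Notch3 8.50 and 7.96 CPM, the latter with an interval of its ratio that included 1. Hes1 was 165 and 134 CPM, and Heyl 3.48 and 2.37 CPM. Hey2 was 1.97 and 1.10 CPM, with an E17.5 level of 0.390, 0.529 and 0.651 of that at E15.5 in the suffixes, past 2-fold in suffix 1. Hey1 was 4.96 and 8.13 CPM, so that E17.5 was 1.64-fold (1.42 to 1.90) above E15.5, with 1.67, 1.72 and 1.55 in the suffixes and 1.15 with each cluster weighted equally. The share of cells from each cluster also differed between libraries: EC3 was the largest cluster at E15.5, with 1185 cells, and OG1 at E17.5, with 1010.

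Within single clusters, 95 pairs of a Notch gene and a cluster had at least 20 UMIs over both libraries. Of these, 18 (18.9%) were at least 2-fold higher at E15.5, against 9.05% of all gene-cluster pairs, and 9 (9.47%) at least 2-fold higher at E17.5, against 8.98%. Jag1 made up 6 of the 18, in EC1, EC4, LIG, OG3, OG4 and MG1, with the widest difference in LIG (35.1 and 9.12 CPM, 3.85-fold). Its MG1 pair rested on 7 UMIs at E15.5, and the interval of the ratio of E17.5 over E15.5, 0.190 to 1.07, included 1. Notch1 made up 4, the osteogenic clusters OG3 (3.96-fold), OG1 (3.73-fold) and PO1 (3.05-fold) and LIG (2.31-fold), and the suffixes held 5.69, 6.54 and 5.78 CPM in OG3 against 24.0 CPM at E15.5. Heyl made up 5, OG1 (24.9-fold), OG3 (10.8-fold), OG2 (3.51-fold), EC1 (3.45-fold) and PO1 (2.45-fold), and in cells without a skeletal muscle marker UMI these were 24.2, 9.31, 3.08, 4.01 and 2.29-fold. Hes1 was within 2-fold in all 15 clusters and Notch2 in 14.

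The pairs higher at E17.5 included Hey1 and Heyl in MG4, with 1 UMI each at E15.5 and ratios of 18.9 (3.25 to 760) and 14.3 (2.43 to 580), and Notch3 in MG4, with a ratio of 2.27 (0.956 to 6.57). Jag1 was at least 2-fold higher at E17.5 in PO2, on 3 against 29 UMIs, with an interval that included 1. The Heyl values at E15.5 came from few cells, since its 36 UMIs in OG1 lay in 18 cells with up to 7 in 1 cell. When cells with a pericyte or endothelial marker UMI were left out, the 27 pairs counted in either direction became 9, with fewer cells and UMIs. EC2 at E17.5, for example, kept 34 of 608 cells. Fewer pairs then reached 20 UMIs over both libraries, so the drop from 27 to 9 does not measure how many pairs ceased to differ.

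The rest of the pathway was read from a list of 33 genes, all present in both lists and 26 with at least 50 UMIs in each library. Of their 390 pairs 6 (1.54%) were called, against the 1.89% of all pairs. Hes6, a Hes-related gene, was 58.0 and 54.3 CPM in OG4, with ratios to the rest of 2.71 and 2.60. At E15.5 Hes6 was highest not in OG4 but in OG1 (62.9 CPM, 121 UMIs). Dlk1, a Delta-like protein that lacks the receptor-binding DSL domain, was 7387 and 6457 CPM in EC3, with ratios of 2.39 and 7.59. Maml2, a coactivator of the Notch complex, was called in MG1 on 6 and 65 UMIs (22.9 and 11.8 CPM), and Lfng, the fringe glycosyltransferase that modifies Notch receptors, in OG3 on 5 and 332 UMIs (3.86 and 25.8 CPM). The interval of the Lfng ratio at E15.5, 0.741 to 5.71, included 1. Lfng was highest at E15.5 in OG1 (5.20 CPM, 10 UMIs). Below 50 UMIs, Neurl1b, a ubiquitin ligase of the Neuralized family, was called in PO2 (10.3 and 13.0 CPM, 5 and 21 UMIs) and PO1, Nrarp, a Notch feedback regulator, in PO2 on 3 UMIs in each library, and Dlk2 in PO1 (4 and 79 UMIs). For Nrarp the interval of the ratio at E17.5, 0.624 to 9.62, included 1.

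Core components were broad or near the detection limit. Rbpj, the DNA-binding partner of the receptors, was 49.7 and 37.6 CPM over all labelled cells and ranged from 18.3 CPM in MG3 to 67.9 CPM in EC3 at E15.5 and from 18.5 CPM in OG4 to 53.8 CPM in EC2 at E17.5. Lfng was 1.71 CPM at E15.5 and 13.3 CPM at E17.5 over all labelled cells, on 83 and 1233 UMIs. Dll4, the endothelial Delta-like ligand, had 3 and 11 UMIs, Notch4 29 and 124, and Hes5 9 and 0.

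Of the Notch genes 6 had at least 200 UMIs in each library, and their patterns over the 30 cluster profiles were compared with those of 9649 genes by Pearson's correlation, as a description, since the profiles share 2 libraries and related cells. The most alike were Iqsec1 for Jag1 (r = 0.865), Dld for Notch1 (0.855), Marf1 for Notch2 (0.904), Col4a1 for Notch3 (0.857), Klf9 for Hes1 (0.805) and Uqcrc2 for Hey1 (0.789). Marf1, Col4a1 and Klf9 stayed among the nearest 3 genes with Spearman's correlation and in clusters of at least 100 cells, and Dld, Uqcrc2 and Iqsec1 did not in both. Among the Notch genes themselves the closest pairs were Jag1 and Notch2 (0.709), Notch1 and Hey1 (0.655) and Hey1 and Heyl (0.606).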

How the data were processed

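Coronal suture cells of wildtype embryos were profiled with the 10x Genomics Chromium 3′ system in 1 library at E15.5 and 3 at E17.5, the latter deposited as 1 sample whose barcodes end in 1 of 3 suffixes. The authors deposited UMI counts per gene and barcode, not normalized and before their cell filters, and a table with their cluster labels. The deposited counts were made with Cell Ranger, per the labels on mm10; version 3.1.0 stands in the E15.5 matrix header, with 31053 genes, and 27998 genes are listed for E17.5. FastQC 0.11.7, MultiQC 0.9 and Seurat 3.2.0 are named in the submitters' processing notes. All 5335 labelled E15.5 cells had fewer UMIs in the matrix than in the authors' table (median 8510 against 11513), and all 6830 E17.5 cells had equal numbers. Another 5 labelled E15.5 barcodes were not found in the matrix.

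Counts were summed per gene, cluster and library (48607817 and 92585034 UMIs in labelled cells) and scaled to the total of that cluster and library. Intervals are exact Poisson for levels, exact conditional binomial for ratios and Clopper-Pearson for shares, at 95%. No p-value was computed. Unlabelled cells with at least 1000 UMIs and 1000 genes, at most 7.5% mitochondrial and 3% Hbb and Hba UMIs were clustered by Leiden on 2000 variable genes without the Notch genes (30 components, 30 neighbours, resolution 1) and named from at least 3 markers, and a majority of a type's list, that stood 2-fold above the other clusters. A cluster stayed unnamed where another type had as many or more of its 10 leading genes, where its depth was low and no marker led, or where 3 or more mesenchyme and osteoblast markers also stood 2-fold above. By its own threshold Scrublet marked 415 of 8210 cells in the earlier library but 41 of 8767 (0.468%) in the later, so doublets were treated in an alternative that left out the 94th percentile and above (501 and 558 cells). The calls were tried on simulated data over 11868 genes: 94.0% of pairs with a 3-fold and 98.0% with a 5-fold difference were called, and 0.0253% without one. The simulation drew Poisson counts with no spread between cells, embryos or batches. These shares therefore cover counting error only and are not error rates of the calls in the real data. Software was scanpy 1.11.5 with anndata 0.12.19, scikit-image 0.26.0 and igraph 0.11.9, scipy 1.17.1, numpy 2.4.6, pandas 2.3.3 and matplotlib 3.10.9, under Python 3.11.15.

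The genes and lists were chosen with earlier results of these data known. All 10 Notch genes are named; of the other pathway genes at most 8 pairs with the largest ratio, and Dll4, Notch4, Rbpj, Lfng and Hes5; of similar genes the nearest 3.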

Additional observations from a re-analysis of the deposited data

How the results depend on the processing

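With 1.5-fold in place of 2-fold, the called pairs of a Notch gene and a cluster went from 5 to 13, the genes with a call from 5 to 8, the pathway pairs from 12 to 19, the genes apart between libraries from 3 to 6 and the pairs apart between libraries from 27 to 47. With 3-fold these were 3, 3 and 2 for the first 3 counts and 13 for the last. Against the median of the other clusters 11 pairs and 19 pathway pairs were called, and 3 pairs on 3 genes kept a ratio interval above 1 or were called with E17.5 suffix 2 alone. Between libraries the 27 pairs became 16 with suffix 1 alone, 14 with at least 50 UMIs, and 9 in cells without pericyte or endothelial marker UMIs, a setting chosen after seeing the data that leaves fewer cells. That last setting also leaves fewer pairs with at least 20 UMIs over both libraries. Jag1 and Notch2 in EC1 and Hey1 in OG3 were called under each of these alternatives except 3-fold, where Hey1 was not. Of 18 nearest genes, 5 stayed with Spearman's correlation and 7 in clusters of at least 100 cells; the cause was not tested. Hey2 in MG4 at E17.5 had a ratio to the other labelled cells of 8.23 and was at 0 in suffix 1 alone, which has 7 MG4 cells. Cells without skeletal muscle marker UMIs, also a later choice, gave 5 called pairs and 26 pairs apart between libraries. Of the 150 ratios of a gene in its highest cluster, 119 moved by less than their interval, as did 81 of 100 ratios between libraries and 403 of 420 levels outside the labels. No paired analysis was possible because no result comes from a test and the single E15.5 library has no batches to pair with those of E17.5. Genes with few UMIs in small clusters, such as Jag2, Dll1 and Hey2, are limited by depth.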

Other observations

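Some cells outside the labels that met no cell type's marker rule held high levels of these genes. At E15.5 a group of 73 cells, led by Hs3st6, Dll1, Necab1, Stmn2, Frem1 and Sox18, held 85.5 CPM of Dll1 (66.5 to 108, 69 UMIs, 38.4% of its cells), 66.9 CPM of Notch1, 71.8 CPM of Hey1 and 61.9 CPM of Heyl. That is 69 of the 73 Dll1 UMIs of all unnamed cells at that stage. At E17.5 a group of 93 cells, led by Aldh1a2, Ntrk2, Fmo1, Sult5a1 and Ngfr, held 148 CPM of Heyl (124 to 176, 136 UMIs), 77.5 CPM of Notch3 and 450 CPM of Hes1, and no Dll1 UMI. Glia-like cells, of which 32 were found at E17.5, held 107 CPM of Heyl on 36 UMIs. At E15.5 a group of 86 cells with 4 of the 5 glia markers 2-fold above other clusters stayed unnamed, since 4 of the 6 mesenchyme and osteoblast markers stood 2-fold above as well, and it held 3.05 CPM of Heyl on 4 UMIs. Mast cells/lymphocytes-like cells held 109 CPM of Hes1 at E15.5 and 1849 CPM at E17.5, where the 33 cells gave 865, 1470 and 2283 CPM in the 3 suffixes and 1606 CPM without doublets. Osteoclasts-like cells held 13.7 and 10.3 CPM of Hes1, the lowest of the named types in each library. Notch1 was also called in myeloid cells-like cells, at 20.8 and 12.7 CPM. This was 3.47-fold (2.67 to 4.46) and 2.71-fold (2.08 to 3.48) above labelled cells. In glia-like cells at E17.5 Notch1 was 35.8 CPM on 12 UMIs.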
